A study of Mus musculus with 10 samples.

Results

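Liver tumours with 2 floxed Arid1a alleles exposed to Cre (Homo, n = 3) were compared with tumours with 1 such allele (Het, n = 3), by ATAC-seq, an assay in which a transposase inserts adapters where DNA is accessible. The groups were taken from the titles of the samples, and these 6 of the 10 libraries of the series were used. Each library gave a list of called peaks. Peaks that overlapped or touched within a list were merged into regions on chromosomes 1 to 19 and X, and the 6 lists were joined into a union of 10577 regions. A region counted as called in a library when a peak of that library overlapped it by 1 bp or more. Het mice were LAP-tta-Arid1afl/+;Alb-cre;TRE-MYC, about 70 days old. Homo mice were Arid1afl/fl with the same LAP-tta, Alb-cre and TRE-MYC, about 100 days old. Both groups were FVB, carried Cre under the albumin promoter, and formed tumours from a tetracycline-controlled MYC transgene under the liver promoter LAP after doxycycline was withdrawn. Tissue was frozen and came from the time of death. Cre under the albumin promoter acts in hepatocytes and their precursors, so other cells of the tumour keep their floxed alleles. Age differed with genotype and their effects cannot be told apart. The 4 WT libraries, from LAP-tta-Arid1aflfl;TRE-MYC mice of about 55 days without Cre, served as reference values only. Replicates are numbered in the titles, but separate mice are not stated, and p-values cover only the spread among the libraries, which may be technical.

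Arid1a encodes the large DNA-binding subunit of the canonical BAF form of SWI/SNF, a complex that uses ATP to slide and evict nucleosomes. BAF is best known for keeping enhancers open, often together with AP-1 and tissue-specific factors, whereas promoters rich in CpG are mostly nucleosome-poor for other reasons. Arid1b can take the place of Arid1a in the complex. In hepatocytes Arid1a has been studied as a tumour suppressor and as a gene that early tumour formation needs. The comparison of Homo with Het asks whether the loss of the second allele changes open chromatin beyond that of the first, with Cre present on both sides.

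In the union, 31 regions were called in 3 of 3 Homo and 0 of 3 Het libraries (Homo-only), which is 0.293% of all regions. The reverse pattern (Het-only) held for 7 regions, or 0.0662%. Of the 31, 24 lay over a RefSeq promoter (GRCm38.p6, the assembly that mm10 names), and so did 3 of the 7. Of the 668 regions called in all 6 libraries, 388 did. The share over the whole union was not counted. These counts take promoters of any gene, whereas the sequences and motif counts below take those of protein-coding genes only. The 250 bases before the transcription start are printed for 4 of the Homo-only promoters, chosen because they rank highest (Fars2), are missing from every WT list (AW209491), share a protein family with the leading region (Lyrm2) or stayed called in 3 of 3 Homo libraries when lists were thinned to equal depth (Edf1). All 3 Het-only promoters of protein-coding genes follow them. Capitals mark matches on either strand to motifs chosen with the data in view. They are the GC box GGGCGG, the box CCAAT bound by NF-Y, the core CCGGAAG of sites for ETS factors, the E-box CACGTG bound by MYC and others, the site TGANTCA of AP-1, the site TGACGTCA of CREB and ATF factors, the half-site CATGCGC of NRF1, and the full NRF1 palindrome with any base in its middle. The last 2 overlap where both match.
Fars2, chr13:36117393-36117642, plus strand: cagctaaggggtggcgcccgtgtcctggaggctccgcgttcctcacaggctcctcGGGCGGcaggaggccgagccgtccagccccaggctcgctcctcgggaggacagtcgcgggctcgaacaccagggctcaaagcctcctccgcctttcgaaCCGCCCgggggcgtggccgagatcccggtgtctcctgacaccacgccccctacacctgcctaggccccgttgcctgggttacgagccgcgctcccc
AW209491, chr13:14629995-14630244, plus strand: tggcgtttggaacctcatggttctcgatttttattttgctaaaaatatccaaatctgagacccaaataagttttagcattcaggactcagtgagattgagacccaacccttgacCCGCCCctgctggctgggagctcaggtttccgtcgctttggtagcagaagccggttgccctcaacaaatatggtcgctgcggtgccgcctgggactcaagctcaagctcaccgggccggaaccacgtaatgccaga
Lyrm2, chr4:32800009-32800258, plus strand: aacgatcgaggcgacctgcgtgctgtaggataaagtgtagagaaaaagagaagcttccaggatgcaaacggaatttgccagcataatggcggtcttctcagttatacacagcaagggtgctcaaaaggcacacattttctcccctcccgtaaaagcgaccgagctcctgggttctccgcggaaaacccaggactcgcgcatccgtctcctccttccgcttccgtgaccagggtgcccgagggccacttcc
Edf1, chr2:25557597-25557846, plus strand: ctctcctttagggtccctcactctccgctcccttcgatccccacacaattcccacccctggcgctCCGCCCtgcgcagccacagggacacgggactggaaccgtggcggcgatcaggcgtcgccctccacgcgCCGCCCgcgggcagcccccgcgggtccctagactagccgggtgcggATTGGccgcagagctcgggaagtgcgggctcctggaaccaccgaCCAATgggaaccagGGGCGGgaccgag
Myo5a, chr9:75070956-75071205, plus strand: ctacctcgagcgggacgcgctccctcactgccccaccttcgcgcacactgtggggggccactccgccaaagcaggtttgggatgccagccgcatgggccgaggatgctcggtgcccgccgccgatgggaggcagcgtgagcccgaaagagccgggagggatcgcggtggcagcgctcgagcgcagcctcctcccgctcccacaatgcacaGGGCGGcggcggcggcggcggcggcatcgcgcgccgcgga
Fut8, chr12:77238489-77238738, plus strand: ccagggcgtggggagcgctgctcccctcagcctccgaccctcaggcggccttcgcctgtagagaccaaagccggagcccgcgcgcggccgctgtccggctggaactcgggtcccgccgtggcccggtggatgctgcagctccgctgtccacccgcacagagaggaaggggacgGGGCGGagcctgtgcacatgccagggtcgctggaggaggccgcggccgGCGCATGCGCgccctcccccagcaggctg
Mboat2, chr12:24831349-24831598, plus strand: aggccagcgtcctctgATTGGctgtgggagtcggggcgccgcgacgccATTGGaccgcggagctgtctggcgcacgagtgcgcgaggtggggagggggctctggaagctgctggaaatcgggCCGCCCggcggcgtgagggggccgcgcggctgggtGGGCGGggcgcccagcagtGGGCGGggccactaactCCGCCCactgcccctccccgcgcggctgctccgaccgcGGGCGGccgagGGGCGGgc

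The region at Fars2 overlaps the start of that gene at 36117428 and runs into it. Lyrm4, whose start is at 36117357, faces the other way, and 215 of the 250 bases shown are also its upstream bases on the other strand. Across the 26 RefSeq promoters of protein-coding genes over Homo-only regions, 20 (76.9%) held a GC box in the 250 upstream bases. Among 483 promoters over regions called in all 6 libraries the share was 70.6%, and among all 21045 promoters of protein-coding genes in the table it was 43.1%. For NRF1 the result depended on the definition: the palindrome was in 6 of the 26 (23.1%), against 13.7% and 5.23%, and the half-site in 2 of the 26 (7.69%), against 11% and 4%. An E-box was in 1 of 26 (3.85%), against 7.25% and 6.70%. A CCAAT box was in 6 (23.1%), against 35.4% and 35.6%, and an ETS core in 5 (19.2%), against 17.6% and 9.08%. No AP-1 match was in the 26, against 2.90% and 6.17%, and no CREB or ATF match, against 1.66% and 1.94%. The mean GC content of the 26 was 65.3%, that of promoters over regions called in all 6 was 65.8%, and that of all promoters was 55.6%. The 3 Het-only promoters averaged 75.5% GC and each held a GC box, and Mboat2 held 6. Lyrm2 held none of these motifs. The 26 promoters belong to 23 genes, and pairs such as Fars2 and Lyrm4 share bases. A motif in the upstream bases need not lie in the called region. At Gabpb1 0 of the 250 bases were inside it, at Zfp296 56 and at Ykt6 all 250.

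List length differed more within groups than between the group means. The lists held 5796, 4666 and 2583 regions in Het 1 to 3 and 3863, 1748 and 9587 in Homo 1 to 3. The longest and the shortest list are therefore both Homo. Sequencing depth was recovered from the deposited values as the background of tags per 200 bp. It was 0.696, 0.655 and 0.738 in Het 1 to 3 and 0.914, 0.464 and 1.61 in Homo 1 to 3, which is a 3.47-fold range. Homo 3 was the deepest and Homo 2 the shallowest of the 6. Homo 3 alone called 2881 regions of the union that no other list of the 6 had, 30.2% of its own, against 2.26% to 6.95% in the other 5. Its Jaccard index, the shared over the combined length of 2 lists, was 0.385 with Het 1 against 0.225 with Homo 1 and 0.103 with Homo 2. No peak checks the Arid1a deletion in any library, so the label of Homo 3 could not be checked against the data. Results are therefore also given without Homo 2 or Homo 3 and after thinning the tags of all 6 lists at random to the depth of Homo 2. Gene-end markers of other cell types were nearly absent. All 5 endothelial, 5 stellate cell and fibroblast, 5 lymphocyte and neutrophil, and 5 cholangiocyte markers had no gene-end peak in any of the 6 lists, and Spi1 (macrophages) and Nfe2 (erythroid cells) had 1 in Homo 3 only. A gene-end peak is one within 1000 bp of either end of a protein-coding gene. Of 10 hepatocyte markers, 3 had such a peak in Homo 3 and 0 in the other 5 lists, so the labelled liver origin cannot be checked this way. In a tumour sample, fewer cells with an open site and a less open site in each cell cannot be told apart.

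**Figure D1:**
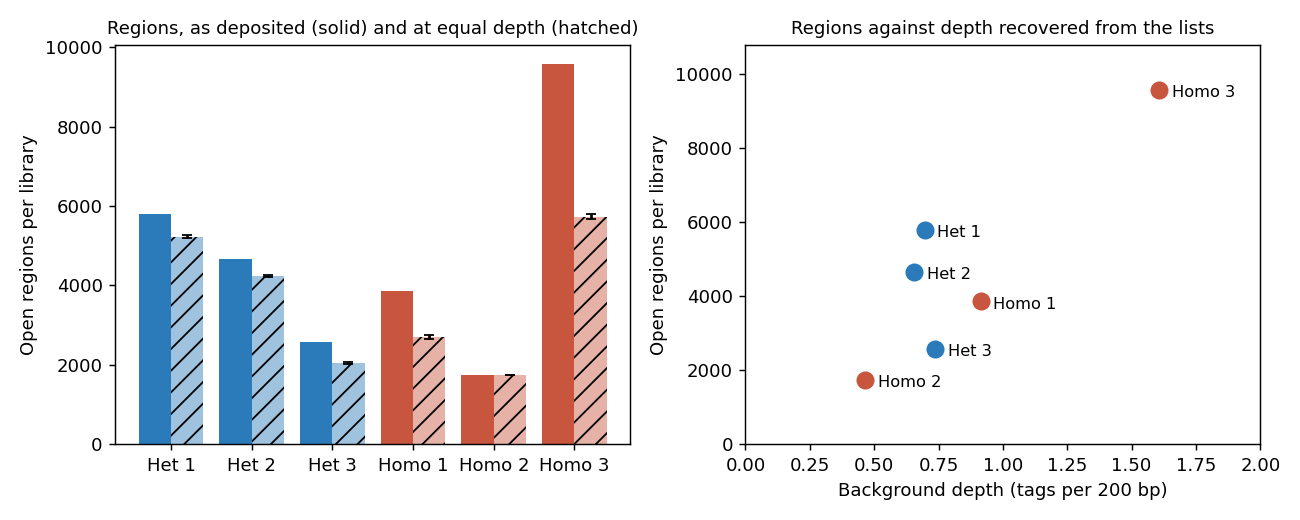
Left, open regions per library (vertical axis) as deposited (solid bars) and after thinning to the depth of Homo 2 (hatched bars: median of 20 random thinnings, with whiskers from the lowest to the highest). Right, regions per library against background depth in tags per 200 bp. Het is blue and Homo is red. Homo 3 stands highest at 9587 regions and a depth of 1.61, and Homo 2 lowest at 1748 and 0.464.

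Region numbers averaged 4348 ± 1630 in Het (SD, n = 3) and 5066 ± 4056 in Homo (SD, n = 3). Homo minus Het was 718, less than the SD of either group (two-sided exact permutation p = 0.9, where 0.1 is the smallest p that 3 against 3 libraries allow). Without Homo 3 the difference was -1543 and without Het 3 it was -165. At equal depth it was -465 (exact permutation p = 0.9). Across 20 thinnings Het 1 kept 5183 to 5282 regions, Het 3 2033 to 2081, Homo 1 2650 to 2753 and Homo 3 5662 to 5805, so the order of Homo 3 and Het 1 at the top narrowed but held, and Homo 2 stayed lowest. Regions covered 1.43 ± 0.588 Mb per Het list and 2.01 ± 1.91 Mb per Homo list (exact permutation p = 0.9). Without Homo 3 the difference in covered length, 0.579 Mb in all 6 lists, became -0.496 Mb. The share of regions at gene ends was 77.9%, 78.5% and 75.3% in Het 1 to 3 and 77.3%, 70.1% and 73.4% in Homo 1 to 3, so the groups overlap. By counting error alone, the 95% Wilson interval was 67.9% to 72.2% in Homo 2 and 77.3% to 79.7% in Het 2, the lowest and the highest share. It was 76.0% to 78.6% in Homo 1 and 73.6% to 76.9% in Het 3, which overlap. Regions of a list are not replicates, so these intervals do not compare the groups. The mean difference was -3.58 percentage points (exact permutation p = 0.2). Among the 1748 strongest regions of each list it was 0.25 percentage points.

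Overlap between lists followed the same libraries. The base-pair Jaccard index was 0.297 on average within Het (3 pairs, 0.247 to 0.387), 0.171 within Homo (3 pairs, 0.103 to 0.225) and 0.252 between Het and Homo (9 pairs, 0.158 to 0.385). The pair most alike was Het 1 with Het 2, followed by Het 1 with Homo 3. The least alike was Homo 2 with Homo 3, a pair of the same genotype. Mean similarity within groups minus that between groups was -0.0182 (exact permutation p = 0.8, one-sided for more similarity within groups). It was 0.0113 without Homo 1 and 0.0327 without Homo 3. Of 1690 regions called in all 3 Het lists, Homo 3 called 98.6%, Homo 1 76.6% and Homo 2 45.8%. Of 1106 called in all 3 Homo lists, Het 1 called 92.0%, Het 2 85.4% and Het 3 67.1%.

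**Figure D2:**
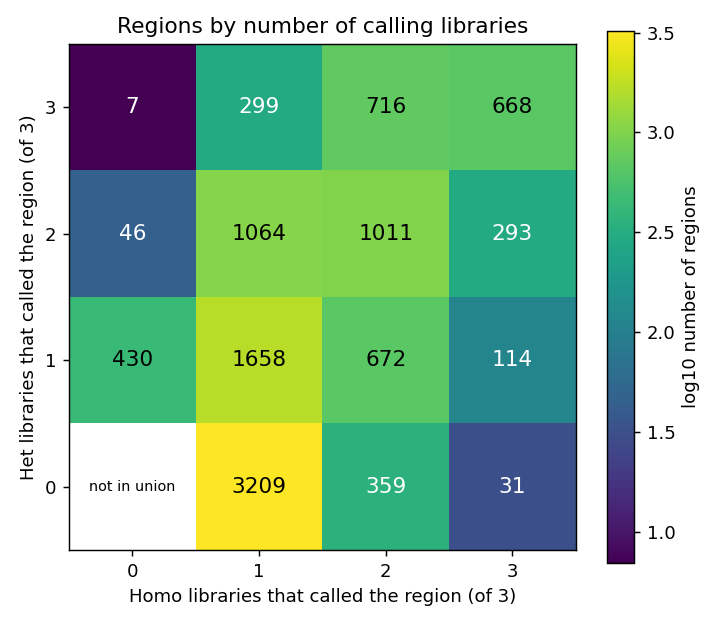
Number of union regions by how many Homo libraries (horizontal axis) and Het libraries (vertical axis) called them, coloured on a log10 scale. The corners of full contrast hold 31 (Homo-only) and 7 (Het-only) regions, while 3209 were called in 1 Homo and no Het library and 668 in all 6.

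Most regions called in Homo and in no Het library came from a single library. Regions called in no Het library numbered 3209 for 1 Homo library, 359 for 2 and 31 for 3. On the other side, 430 regions were called in 1 Het and no Homo library, 46 in 2 and 7 in 3. Of the 31 Homo-only regions, 22 were gene-end regions, 4 were inside genes and 5 were intergenic. These classes use protein-coding genes only. By comparison, the 10577 union regions held 7661, 1727 and 1189. The 31 were of moderate strength. Their median rank percentile, where 100 is the strongest region of a list by the deposited -log10 p, was 46.0 in Homo 1, 28.1 in Homo 2 and 36.5 in Homo 3, and their summit folds over background ran from 4.46 to 9.93. The summit fold is the authors' own value for each peak. The 668 regions called in all 6 libraries stood at 84.3, 69.3 and 83.3 in these 3 lists. Being called in every list selects strong regions, so the values are a description.

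The Homo-only and Het-only counts moved with the make-up of the lists. They were 31 and 7 as deposited, 41 and 300 without Homo 3, 303 and 7 without Homo 2, and 105 and 12 without Het 1. Without Homo 1 they were 108 and 15, without Het 2 57 and 18, and without Het 3 44 and 37. Leaving out a library asks for a call or an absence in fewer lists. Regions with the full contrast keep it, so these counts can rise for that reason alone. At equal depth the counts were 12 and 74, and over 20 thinnings they ran from 8 to 23 and from 56 to 81. With the 1748 strongest regions of each list they were 21 and 33, and with a -log10 p of at least 10 they were 18 and 5. So the larger side was Homo-only in the deposited lists and Het-only at equal depth and equal list length. A single region called in 3 of 3 against 0 of 3 libraries gives a Fisher's exact p of 0.1, the smallest possible, and none can pass an adjustment over all regions.

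Of 8533 protein-coding genes with a gene-end peak in at least 1 of the 6 lists, 30 (0.352%) were Homo-only and 3 (0.0352%) Het-only. Mitochondrial proteins were among the genes that ranked highest. Fars2, the mitochondrial phenylalanyl-tRNA synthetase, and Lyrm4, which stabilises the cysteine desulfurase of iron-sulfur cluster assembly, share the leading region (chromosome 13, 36117372 to 36118011). Its fold was 6.41 in Homo 1, 8.14 in Homo 2 and 9.48 in Homo 3, with rank percentiles of 56.8, 83.8 and 85.2. No Het list had a peak there, and all 4 WT lists did, with folds from 5.73 to 7.64. The region stayed in 3 of 3 Homo lists at equal depth and among the 1748 strongest regions. Throughout, presence at single genes at equal depth comes from 1 random thinning and may differ in another. Lyrm2, another small protein with an LYR motif (chromosome 4, 32800039 to 32800559), had folds of 6.96, 7.14 and 4.98 in Homo 1 to 3. It was weakest in the deepest list, where its rank percentile was 3.90. At equal depth it stayed in 2 of 3. Micu3, a regulator of mitochondrial calcium uptake (chromosome 8, 40307679 to 40308282), had folds of 6.78, 5.42 and 8.16, and also had a peak in 4 of 4 WT lists.

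AW209491 (chromosome 13, 14630057 to 14630538) and an intergenic region on chromosome 15 (60141794 to 60142042), 125176 bp from the nearest protein-coding gene, were the 2 of the 31 regions without a peak in any WT list. The region on chromosome 15 lay over the RefSeq promoter of Gm41331, which is not among the protein-coding genes used. At AW209491 the fold was 7.48 in Homo 1, 7.14 in Homo 2 and 5.37 in Homo 3, and at the intergenic region 5.75, 6.83 and 6.13. In Homo 3 the 2 regions ranked low, at percentiles of 8.57 and 21.2. At equal depth the gene-end peak of AW209491 was called in 1 of 3 Homo lists. Of the 31 regions, 15 (48.4%) were called in all 4 WT lists, a share close to the 48.8% of the whole union.

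Genes of chromatin and transcription among the 30 included Cecr2, Tcea2, Edf1, Zfp296 and Zbtb41. Cecr2, a bromodomain protein of an ISWI remodeller (chromosome 6, 120666314 to 120771191), had folds of 5, 7.58 and 5.88 in Homo 1 to 3. Its Homo 1 peak did not overlap that of Homo 2, so it counts as a gene and not as a region. Edf1, a coactivator that also acts at collided ribosomes (chromosome 2, 25557607 to 25558046), had folds of 6.45, 5.26 and 6.18. Cecr2 and Edf1 stayed in 3 of 3 Homo lists at equal depth, and in 1 and 2 of 3 among the 1748 strongest regions. Tcea2, a transcript elongation factor, had folds of 6.58, 4.59 and 6.5, and Zfp296, a zinc finger protein, 6.21, 6.32 and 4.91.

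Another group of the 30 handles RNA and protein. Dis3, a nuclease of the RNA exosome, and Pibf1, a centrosomal protein, share a region with folds of 5.94, 5.84 and 6.18 in Homo 1 to 3. Ddx3x, an RNA helicase, had peaks in all 3 Homo lists that did not all overlap one another. Eif1b, a translation initiation factor, had folds of 5.86, 5.88 and 7.04. Psmd3, a subunit of the proteasome, had folds of 4.82, 5.63 and 8.46. Cops7b, of the COP9 signalosome, shares its region with Pde6d, a carrier of lipid-modified proteins, at folds of 5.88, 6 and 7.5. Of these, Dis3, Pibf1, Eif1b, Psmd3, Cops7b and Pde6d had peaks in 4 of 4 WT lists and Ddx3x in 1. At equal depth none of these 7 genes stayed in 3 of 3 Homo lists.

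Membrane traffic and signalling genes included Ykt6 (a SNARE protein of vesicle fusion), Arfgef1 (an activator of ARF proteins), Agpat3 (a phospholipid acyltransferase), Mogs (which trims N-linked glycans), Ndc1 (of the nuclear pore), Rasl11b (a small GTPase) and Arhgap30 (a GTPase-activating protein). Arhgap30 (chromosome 1, 171388960 to 171410240, plus strand) had folds of 6.88, 6.25 and 8.52 in Homo 1 to 3, at 171411118 to 171411648 in Homo 1. That is beyond its 3′ end and not at its start. Its region is not among the 31 Homo-only regions. With the 2500 bp gene-end window, Homo minus Het at Arhgap30 was 2 libraries, against 3 with the 1000 bp window. Its Homo-only pattern therefore depends on the window. Rasl11b had folds of 7.09, 5.49 and 5.62. Both stayed in 3 of 3 Homo lists at equal depth, as did Fam222a, with folds of 4.96, 6.06 and 8.29. Ykt6 had folds of 6.19, 6.17 and 7.19 in Homo and of 6.44 to 9.21 in WT, so its WT and Homo values overlap. Others were Gm49894, 3110040N11Rik, Hmces (which shields abasic DNA sites) and Bphl (a hydrolase). Of all 30 genes, 18 had a peak in 4 of 4 WT lists, 7 stayed in 3 of 3 Homo lists at equal depth and 2, Fars2 and Lyrm4, did so among the 1748 strongest regions.

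Away from gene ends, the Homo-only regions ranked highest lay inside Trim13, a ubiquitin ligase, with folds of 6.27, 7.51 and 9.93 in Homo 1 to 3. Others lay inside Tsc22d1 (folds of 6.12, 5.15 and 6.04), Gabpb1 (5.63, 4.69 and 5.61), a subunit of an ETS-type factor of nuclear-encoded mitochondrial genes, and Mkrn1 (4.46, 5.36 and 7.39), a ubiquitin ligase. All 4 of these lay over a RefSeq promoter, at a start inside the gene. Intergenic ones were nearest to Ptpdc1, Epb41l4a, Zbtb33 and Adnp, at 31041, 1264, 9366 and 26293 bp. The one nearest to Adnp lay over the RefSeq promoter of E130018N17Rik.

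**Figure D3:**
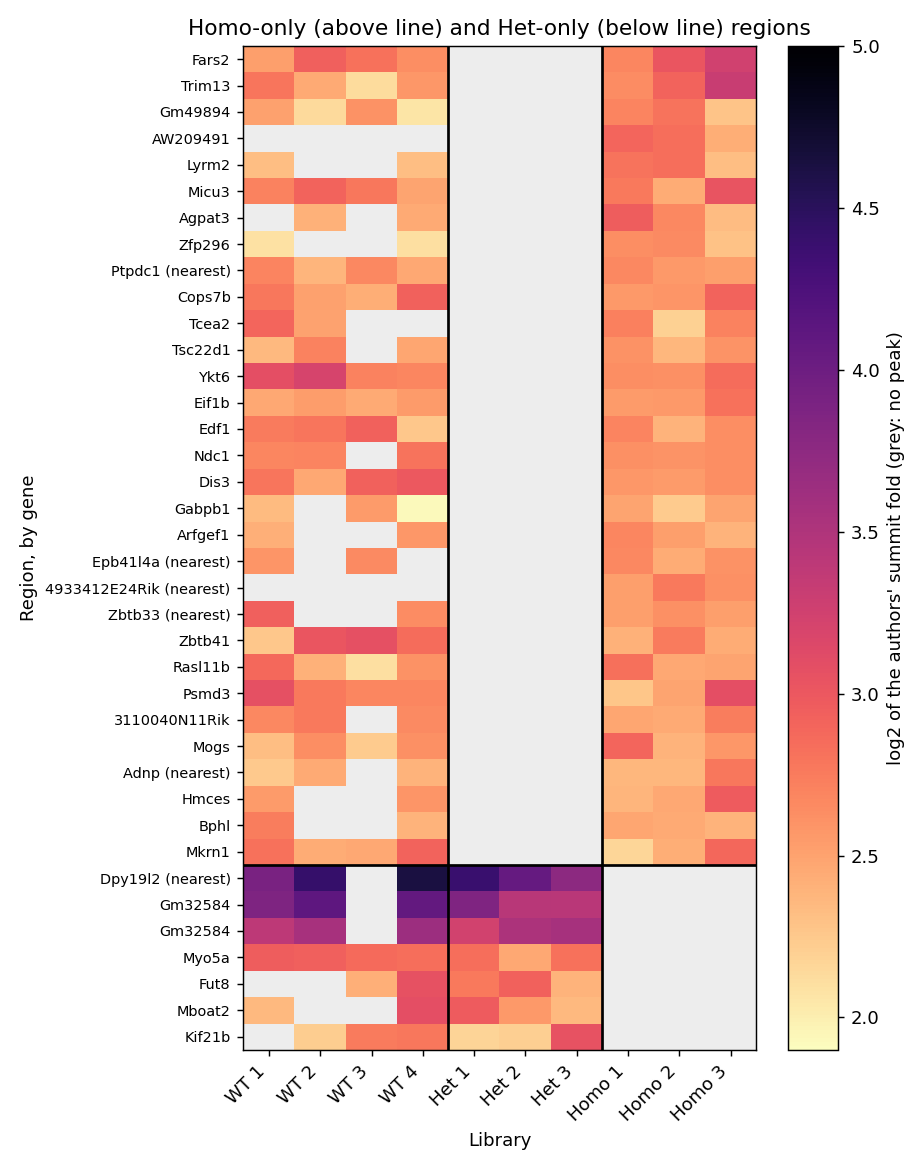
Each row is 1 of the 31 Homo-only (above the line) or 7 Het-only (below it) regions, named by its gene or nearest gene, and each column a library. Colour gives the log2 of the authors' summit fold, and grey means that no peak was called. The darkest cells are Dpy19l2 and the pair at Gm32584, in all 3 Het and in WT 1, 2 and 4. The empty blocks follow from the choice of regions.

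The Het-only regions were fewer and held the strongest signals of either direction. The region nearest to Dpy19l2, 14822 bp away (chromosome 9, 24541942 to 24542225), had folds of 20.9, 16.7 and 13.6 in Het 1 to 3. Its rank percentiles there were 98.7, 97.8 and 95.2. It was also strong in WT 1, WT 2 and WT 4, with folds of 14.9, 21.3 and 24.9, and had no peak in WT 3 or any Homo list. A pair of regions just inside either end of Gm32584, both also within D5Ertd579e (chromosome 5), had the same pattern over the 10 libraries. The first, 36630457 to 36630790, had folds of 14.5, 10.8 and 10.7 in Het 1 to 3. The second, 36660893 to 36661266, had folds of 9.43, 11.5 and 11.8. Both were called in WT 1, 2 and 4 and missing from WT 3. Depth was 0.985 tags per 200 bp in WT 3, 0.464 to 1.61 in the Homo lists and 0.655 to 0.738 in the Het lists, and its part in the absence of these peaks was not tested.

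At the level of genes, the 3 Het-only ones were Gm32584, Mboat2 and Kif21b, and all 3 stayed in 3 of 3 Het lists at equal depth. At equal list length Gm32584 stayed in 3 of 3 Het lists, Kif21b in 1 and Mboat2 in 0. With a -log10 p of at least 10, Gm32584 stayed in 3 of 3, and Mboat2 and Kif21b in 1 each. The other 4 Het-only regions were at Myo5a, Fut8, Mboat2 and Kif21b. Myo5a, an actin-based motor (chromosome 9, 75071136 to 75071637), had folds of 7.14, 5.49 and 7.02 in Het 1 to 3 and was called in all 4 WT lists. Fut8, which adds the core fucose of N-linked glycans (chromosome 12, 77238391 to 77238877), had folds of 6.78, 7.58 and 5.24. Mboat2, a lysophospholipid acyltransferase (chromosome 12, 24831211 to 24831585), had folds of 7.81, 5.91 and 5.10. Kif21b, a kinesin motor (chromosome 1, 136131228 to 136131607), had folds of 4.50, 4.64 and 8.25, and in Het 1 and Het 2 it was among the weakest regions called, with rank percentiles of 0.22 and 0.90. Mboat2 and Kif21b were called in no Homo list although Homo 3 called 98.6% of the regions present in all 3 Het lists.

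The Het-only regions can also be read against WT. Of 1565 regions called in 4 of 4 WT and 3 of 3 Het lists, 1 was called in no Homo list, the one at Myo5a, 260 in 1, 658 in 2 and 646 in 3. Of 496 regions called in 4 of 4 WT and no Het list, 365 were called in 1 Homo list, 116 in 2 and 15 in 3. The union holds only regions called in Het or Homo lists. WT regions missing from Het and Homo alike are therefore not counted among the 496.

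The 668 regions called in all 6 lists were compared by their order of strength. Each list's -log10 p values over these regions were turned into normal scores of their ranks, so that depth cannot shift a whole list, and tested with limma. At a Benjamini-Hochberg adjusted p under 0.05, 0 of the 668 (0%) differed in either direction. At an unadjusted p under 0.05 there were 26, with 12 ranked higher and 14 lower in Homo. The smallest adjusted p was 0.82. With array weights, which give Homo 3 a weight of 0.258 against 1.09 to 1.72 for the other 5, 0 passed and 62 had an unadjusted p under 0.05. With the log2 of the summit fold in place of ranks, 0 passed and 14 had an unadjusted p under 0.05.

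The regions with the smallest p-values are named as not passing. At Appbp2, an adaptor of a ubiquitin ligase (chromosome 11, 85234650 to 85235376), percentiles among the 668 were 0.37, 3.97 and 11 in Het 1 to 3 and 56.1, 72.7 and 50.1 in Homo 1 to 3. Its folds were 5.29, 5.56 and 5.24 in Het and 7.75, 8.85 and 9.12 in Homo. The rank score differed by 2.14 ± 0.414 (SE, limma adjusted p = 0.82, and 0.274 to 1 over 10 alternatives). At Zfp292 (chromosome 4, 34882514 to 34883224) the percentiles were 14.3, 16.7 and 2.62 in Het and 65.3, 63.9 and 46.0 in Homo. Ergic2, a cargo receptor between endoplasmic reticulum and Golgi (chromosome 6, 148211666 to 148212342), stood at 29.6, 15.6 and 9.51 in Het and 74.5, 53.6 and 85.7 in Homo. Egln1, the oxygen-sensing prolyl hydroxylase that marks HIF for decay (chromosome 8, 124948824 to 124949596), stood at 8.31, 3.07 and 9.21 in Het and 36.2, 65.6 and 29.3 in Homo. A region on chromosome 5 (5944827 to 5945311), 194637 bp from Gm46900, stood at 62.3, 41.4 and 35.1 in Het and 80.3, 75.4 and 83.2 in Homo. These 5 were picked by the smallest p among regions ranked higher in Homo, and none passed the test. Every Homo percentile exceeded every Het percentile in 18 of the 668 regions (2.69%), the 5 included.

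Lower in Homo, likewise without passing, Rnf11, a ubiquitin ligase (chromosome 4, 109476177 to 109476910), stood at percentiles of 75.8, 60.6 and 55.9 in Het 1 to 3 and 17.6, 26.0 and 4.72 in Homo 1 to 3. Its folds were 12.1, 8.88 and 7.41 in Het and 5.86, 5.98 and 5.81 in Homo, and the rank score differed by -1.46 ± 0.327 (SE, limma adjusted p = 0.82, and 0.262 to 1 over 11 alternatives). Tubb4b, a beta-tubulin (chromosome 2, 25224171 to 25225251), stood at 47.7, 51.3 and 74.5 in Het and 3.67, 12.1 and 26.6 in Homo. Ywhaq, an adaptor that binds phosphorylated proteins, stood at 32.6, 56.8 and 60.3 against 22.7, 22.2 and 12.8. A region 18556 bp from Pkd2l1 stood at 59.7, 27.2 and 56.8 against 13, 7.19 and 18. The region shared by Ormdl1, a regulator of sphingolipid synthesis, and Pms1 stood at 55.8, 34.5 and 28.4 against 20.4, 8.98 and 9.06. These 5 too were picked by the smallest p, and are among the 25 of the 668 regions (3.74%) in which every Homo percentile lay below every Het percentile.

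**Figure D4:**
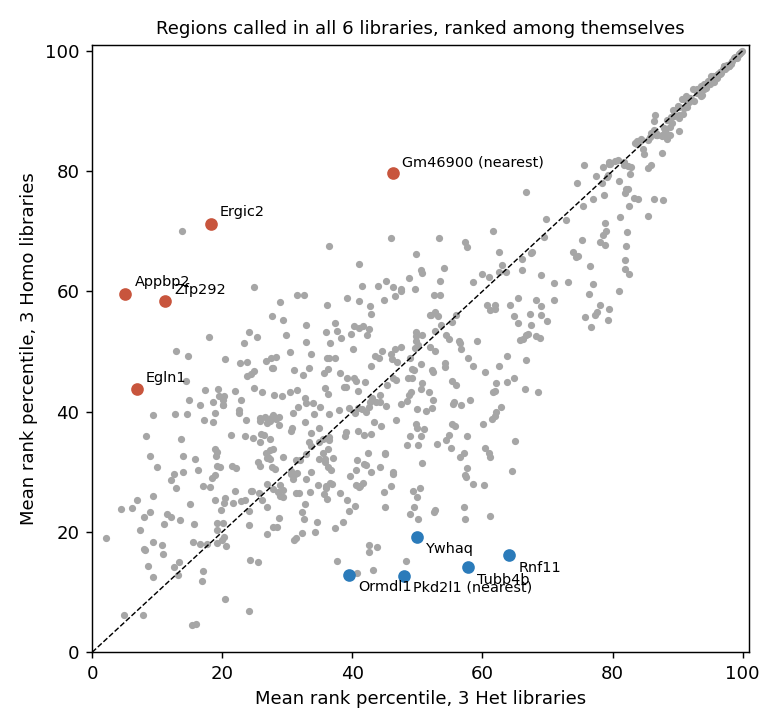
Each point is 1 of the 668 regions called in all 6 libraries, at its mean rank percentile among them in 3 Het (horizontal axis) and 3 Homo libraries (vertical axis), with the line of equality dashed. Coloured points are the 5 regions per direction with the smallest p-values, none of which passed at the adjusted threshold. The strongest regions, at the upper right, lie on the line.

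Arid1a itself (chromosome 4, 133679008 to 133756769, minus strand) had a peak just beyond its start in Homo 1 only (133757130 to 133757427, fold 4.46). A peak inside the gene, near that start, was called in Het 1 (133754216 to 133754577, fold 5.81), Het 3 (fold 4.62) and Homo 3 (fold 6.88) and in all 4 WT lists. Homo 2, the shallowest list, had none. The sources used here do not place the floxed exons, so these peaks do not check the deletion. Arid1b, the alternative subunit, had a gene-end peak in Homo 3 and in none of the other 5 lists.

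Of 28 SWI/SNF subunit genes, 16, 12 and 5 had a gene-end peak in Het 1 to 3 and 14, 1 and 22 in Homo 1 to 3, which is the order of the list lengths within each group. Over all 21631 protein-coding genes the numbers were 5221, 4299 and 2267 in Het and 3445, 1469 and 8012 in Homo. More Homo than Het libraries called 10 of the 28, fewer called 6, and 12 were equal, with a median difference of 0 libraries, as over all genes. No subunit differed by 2 or more libraries. Pbrm1, of the PBAF form, was the 1 subunit called in all 6 lists. The ATPase gene Smarca4 was called in 1 Het and 2 Homo lists, and Smarcb1, a core subunit, in 1 and 1. Among the 1748 strongest regions the list stood at 2, 4 and 4 members in Het and 6, 1 and 4 in Homo.

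Other chromatin remodellers and Polycomb genes had 19, 15 and 12 of 27 members with a gene-end peak in Het 1 to 3 and 13, 7 and 20 in Homo 1 to 3. More Homo libraries called 3 of them and more Het libraries called 9, where over all 21631 protein-coding genes the counts were 3247 and 2284. At equal depth the list's counts were 1 and 14 against 2108 and 3128 over all genes, and at equal list length 3 and 5 against 1676 and 1589. Whether the list differs from other genes was not tested. Chd7, an ATP-dependent remodeller, had peaks in Het 1 alone (fold 5.79) and in all 3 Homo lists (6.76, 5.91 and 7.80). Baz1b, a subunit of ISWI-type complexes, had peaks in all 3 Het lists (6.49, 7.20 and 6.72) and in Homo 3 alone (8.06). Both had peaks in 4 of 4 WT lists.

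AP-1 and immediate early genes stood at 8, 8 and 5 of 20 in Het and 7, 3 and 14 in Homo. Atf3, a stress-induced partner of AP-1, had folds of 6.25, 5.95 and 5.24 in Het 1 to 3 and 7.92 in Homo 3, and no peak in Homo 1 or Homo 2. MYC-regulated growth genes stood at 18, 15 and 9 of 25 in Het and 12, 5 and 23 in Homo, with 6 called more often in each group. Called in 3 Het lists and Homo 3 were Ncl (nucleolin), Rrp9 (a nucleolar processing factor) and Srm (spermidine synthase). Nop58, of the box C/D ribonucleoprotein, was called in Homo 1 (6.80) and Homo 3 (7.80) and in no Het list. The lists of cell cycle genes stood at 14, 13 and 2 of 29 in Het and 8, 3 and 22 in Homo, and Rrm1, a subunit of ribonucleotide reductase, was called in Homo 1 (7.50) and Homo 3 (7.57) only.

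Liver transcription factors stood at 5, 6 and 3 of 22 in Het and 4, 2 and 10 in Homo, secreted proteins at 2, 2 and 0 of 22 against 2, 0 and 8, and cytochrome P450 and drug metabolism genes at 2, 2 and 1 of 21 against 1, 1 and 2. In glucose and lipid metabolism (9, 8 and 6 of 22 against 7, 3 and 13), Acly, which makes cytosolic acetyl-CoA, had folds of 7.43, 6.31 and 6.10 in Het 1 to 3 and 9.50 in Homo 3 alone. Trf, the iron carrier transferrin, was called in Homo 1 (5.20) and Homo 3 (4.89) only. Migration, invasion and metastasis genes stood at 5, 3 and 2 of 24 in Het and 3, 1 and 6 in Homo. Urea cycle and amino acid genes stood at 3, 5 and 3 of 20 against 2, 2 and 9, and fetal liver genes at 3, 0 and 0 of 11 against 0, 0 and 2. Housekeeping genes stood at 9, 9 and 1 of 20 against 8, 1 and 15. Among them Gapdh was called in Het 2 and all 3 Homo lists, and B2m and Rps18 in Homo 1 and Homo 3 only.

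The mitochondrial translation and import list stood at 11, 9 and 2 of 22 members in Het 1 to 3 and 13, 10 and 19 in Homo 1 to 3. Fars2, Lyrm4 and Lyrm2 are on this list because earlier results of these data had named them. Without those 3, the counts were 11, 9 and 2 of 19 in Het and 10, 7 and 16 in Homo, so the groups overlap. Of these 19, 10 were called by more Homo libraries, 1 (Mrps12) by more Het libraries and 8 by equal numbers, with a median difference of 1 library against 0 over all genes. Over all 21631 protein-coding genes, more Homo libraries called 3247 and more Het libraries 2284. At equal list length the 19 stood at 7, 4 and 2 in Het and 3, 7 and 5 in Homo. Whether these 19 differ from other genes was not tested. Nfs1, the desulfurase that Lyrm4 binds, was called in Het 2 (6.5) and in all 3 Homo lists (6.09, 6.54 and 6.34), and Gfm1, an elongation factor, in Homo 1 (5.61) and Homo 3 (5.73) only. Wider families were chosen after seeing the data, and their difference from the list was not tested. Of 78 mitochondrial ribosomal protein genes 33, 29 and 10 were called in Het and 23, 14 and 61 in Homo, and of 41 NADH dehydrogenase subunit genes 21, 13 and 10 against 13, 6 and 33. Mitochondrial import genes named Timm or Tomm stood at 15, 14 and 1 of 25 against 10, 5 and 19. Mitochondrial tRNA synthetase genes, Fars2 included, stood at 9, 7 and 2 of 17 against 11, 3 and 14, and cytosolic ribosomal protein genes at 41, 40 and 20 of 85 against 38, 10 and 67.

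**Figure D5:**
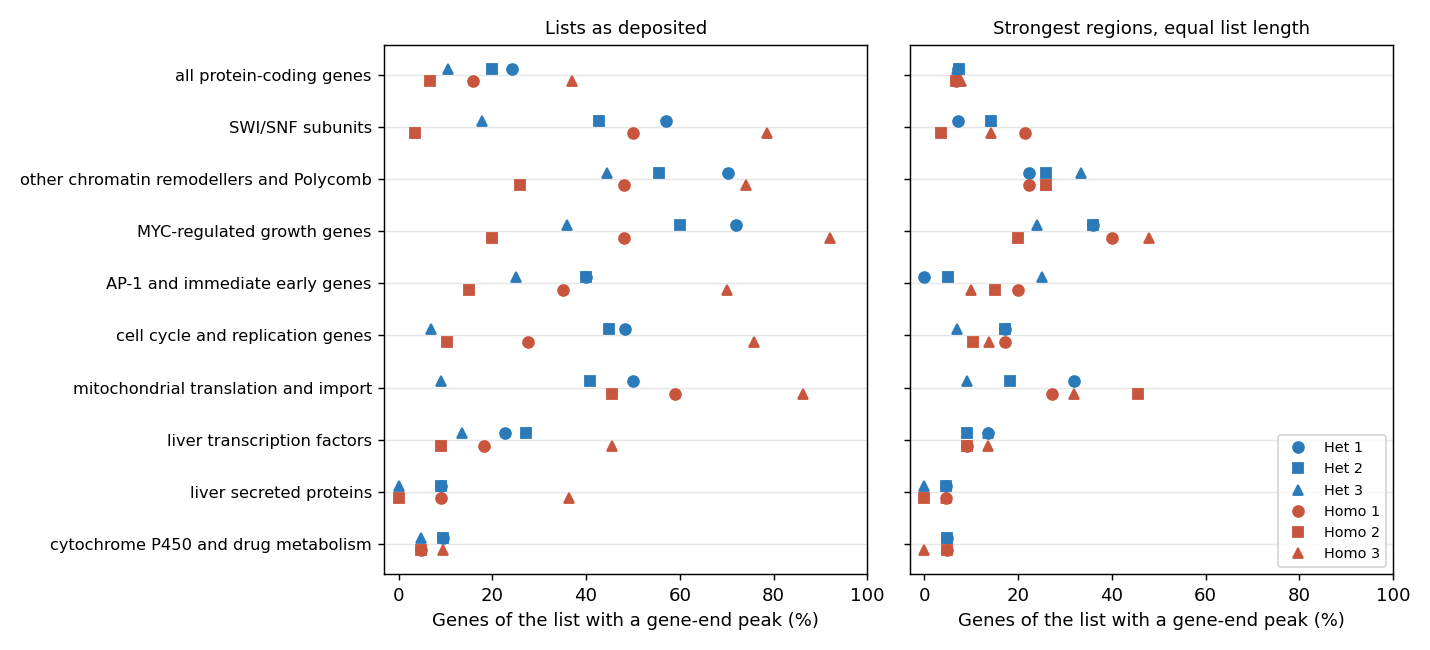
Percent of each list's genes with a gene-end peak (horizontal axis) in each library, in the lists as deposited (left) and among the 1748 strongest regions of each (right). Het is blue and Homo red, with circles, squares and triangles for replicates 1, 2 and 3. On the left the Homo 3 triangle is at or near the right in every list, as it is for all protein-coding genes (37.0%), and on the right the groups overlap in each list.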

How the data were processed

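ATAC-seq was measured in 10 liver tumour libraries, of which 3 Het and 3 Homo were compared. Per the submitters' processing notes, alignment to mm10 used Bowtie2, peak calling used MACS2, and deepTools was also run. The versions, the peak calling settings, the read filters and any transposase shift were not given in the sources used here. The deposited files are narrowPeak lists, 1 for each library. Peaks were called per library. Each deposited row holds a score, which is the −log10 p multiplied by 10 and truncated, a summit fold (a ratio of tag pileup plus 1 to local background plus 1), −log10 p and −log10 q values, and the summit's offset. Read counts per region were not analysed here.

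For each row, the whole-number pileup and Poisson background that give the deposited fold and −log10 p (tolerance 0.001) were found in 100% of rows of all lists. Depth was taken as the lowest background value found in 10 or more rows. Lists were thinned to the depth of Homo 2 by drawing tags at random (seed 1, and, chosen after seeing the data, 20 draws), keeping a −log10 p of at least 5. Thinning can only remove peaks, so a group at 0 of 3 stays there. The 6 lists hold 123 rows on other chromosomes, which were left out. Gene positions come from RefSeq (GRCm38.p6; 21631 protein-coding genes), and 353 of 354 gene list entries were in it.

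Region number, covered length, gene-end share and Jaccard index were tested by two-sided exact permutation over the 20 arrangements of 3 against 3 libraries (10 distinct for the Jaccard index, one-sided). Regions called in all 6 lists were tested with limma 3.58.1 in R 4.3.3, tested on simulated data, with Benjamini-Hochberg adjustment over 668 regions. Other steps used Python 3.11.15. Named genes are Arid1a, the Homo-only and Het-only genes and regions, the 5 shared regions per direction with the smallest p, and up to 6 list members per list that differ by at least 2 libraries; a few of these are not reported here. The members and lists were chosen with earlier results of these data known. Same-numbered Het and Homo libraries correlated at -0.0733, -0.0520 and -0.197 in their deviations from group means, so the numbers do not pair them. Alternatives were a stricter −log10 p of 10, equal depth, the 1748 strongest regions per list, overlap of at least 50% of the shorter region, a 2500 bp gene-end window, array weights, log2 fold, a replicate block and leaving out each library.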

Additional observations from a re-analysis of the deposited data

How the results depend on the processing

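The number of regions in Homo minus Het, 718 in the deposited lists, was -465 at equal depth, and the gene-end share difference, -3.58 percentage points, was 0.25 at equal list length. Homo-only regions, 31 in the deposited lists, numbered 18 at the stricter threshold, 12 at equal depth and 14.5 as the median of 20 thinnings, an alternative chosen after seeing the data. Het-only regions, 7 in the deposited lists, numbered 74, 70.5 as the median of 20 thinnings, and 33 at equal list length. Homo-only genes numbered 11 at equal depth. Het-only genes numbered 71 at equal depth, 34 at equal list length and 5 with the 2500 bp window. The cause of these shifts was not tested, and thinning shortens every list but that of Homo 2.

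Leaving out 1 library at a time, the difference in region number ran from -1543 to 2377, that in covered length from -0.496 to 1.33 Mb, that in gene-end share from -5.44 to -1.83 percentage points and that in the Jaccard index from -0.0585 to 0.0327. Homo-only regions ran from 41 to 303, Het-only regions from 7 to 300, Homo-only genes from 35 to 294 and Het-only genes from 3 to 292. With a library left out these patterns ask for fewer lists, so full contrasts are kept and the counts can rise for that reason alone. The count of shared regions ranked higher or lower in Homo was 0 in both directions in the deposited lists and under all 13 alternatives. At an unadjusted limma p under 0.05, counts ran from 8 of 223 tested regions (equal list length) to 65 of 674 (without Homo 3). They were 26 of 668 in the deposited lists and 59 of 1278 without Homo 2, where the most regions were tested. With the replicate number as a block, sign-flip p-values were 1 for region number, 1 for covered length and 0.25 for gene-end share, where 0.25 is the smallest possible, and limma gave 0 regions in either direction and 33 at an unadjusted p under 0.05. The block changed no call, and the correlations of same-numbered libraries, given with the processing, do not pair them. The rank score at Ormdl1 was 0.12 at equal depth, against -0.89 in the deposited lists, and the other 108 values of named shared regions kept their sign. Presence at named genes, where leaving out a library cannot change a full contrast, kept it in 48 of the 132 values under the other alternatives and lost it in 84. At this depth a missing peak is not a closed site.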

Other observations

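A few strong regions were called in some libraries and missing from others, most of them without following genotype. Of the union regions, 136 had a median summit fold of at least 10 and were called in all 6 lists, and 16 had such a median and were called in 2 to 5 of them. The median was taken over the lists that called the region. Among the 16, 3 had the full Het-only pattern, those at Dpy19l2 and Gm32584, and 0 the Homo-only pattern. Of the 6 lists, only Het 1 and Homo 3, the 2 longest, called those at Chfr, Zswim9, Prkdc, Ccnf and Cbwd1. Those at Idi1, Kifc5b and Pum3 were called in these 2 lists and 1 other. All of these gene-end regions were called in every WT list. A region 195918 bp from Chl1, which encodes a neural cell adhesion protein (chromosome 6, 103314527 to 103314805), had folds of 19.1 in WT 1, 17 in WT 3 and 13.9 in WT 4, of 8.06 in Het 3, and of 16.8 in Homo 1 and 15.2 in Homo 3. It had no peak in WT 2, Het 1, Het 2 or Homo 2. A region on chromosome 12 (93576964 to 93577243), 682153 bp from Gm40892, was called in 9 of the 10 libraries with folds from 9.57 to 14, and had no peak in Het 3. On the X chromosome, a region 497453 bp from Il1rapl1 (87238256 to 87238525) was called in 9 libraries with folds from 8.01 to 13.1 and had no peak in Homo 3, the deepest of the 6. These regions were chosen after their values were seen, and the reason for their absence was not tested.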
